A study of Mus musculus with 12 samples.

Results

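Gene expression was compared between RAW264.7 cells cultured with medium taken from PyMT-41C cells that lack JMJD6 (KO medium) and RAW264.7 cells in normal medium, which used 6 of the 12 arrays of the series. RAW264.7 is an established mouse macrophage-like line. The groups were chosen by array title: normal medium, replicates 2, 3 and 4, and KO medium, replicates 1, 2 and 3, each 1 sample per array. Per the labels' protocols the culture lasted 24 h, in a mixture with 50% conditioned medium and the rest normal RPMI with serum. The 6 arrays not in this comparison were 3 of cells in medium from SCR PyMT-41C cells (SCR medium) and 3 of cells in SCR medium with CSH; these arrays enter the filter, the principal components and the estimate of the spread behind each SE and p-value, and the SCR arrays also the comparison of KO with SCR medium. The knockout was in the cells that made the medium and not in the cells measured, so Jmjd6 RNA on these arrays checks no label; it read 10.16, 9.93 and 9.89 in normal medium and 9.98, 10.12 and 9.54 in KO medium on the log2 scale. KO medium differs from normal medium both in what the PyMT-41C cells added and in what they took up, and these cannot be told apart here. The labels name no separate cultures; a p-value here thus reflects only how far apart these samples lie, and that spread may be technical.

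Macrophages are cells of innate immunity that take their state from the factors around them. Medium from tumour cells can carry growth factors, cytokines and lipids, and it can be poorer in nutrients than fresh medium. None of these was measured on the arrays. Macrophages respond to such cues by switching sets of genes for surface receptors, secreted factors, metabolism and cell division. Amino acid shortage acts through the transcription factor ATF4, unfolded protein in the endoplasmic reticulum (ER) through ATF6, XBP1 and ATF4, and signals that raise cyclic AMP (cAMP) through CREB.

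KO medium changed 7079 of 18119 genes tested, 39.1% of them: 3886 (21.4%) were higher and 3193 (17.6%) lower at an adjusted p below 0.05. Counts for the gene lists below are to be read against these shares. Each value is a log2 RMA signal, taken from the gene's most intense probe set; tests are from limma, with Benjamini-Hochberg adjustment over all genes tested. Most called changes were small. Among them, 4967 had a size under 0.58 on the log2 scale, and the median size was 0.41. At least 2-fold changes numbered 740 (4.08%), 388 higher (2.14%) and 352 lower (1.94%), and 12 genes rose and 7 fell at least 8-fold. The median change of all genes tested was 0.007, and the 1st and 99th percentiles were -1.34 and 1.36. For 49.8% of genes tested, every KO array lay on 1 side of every normal array. The 6 arrays had medians of 5.44 to 5.46, and the first principal component of the 12 arrays, with 71.3% of the variance, placed normal medium at -42.7 to -37.1 and KO medium at 14.9 to 22.2. The number of arrays limits the precision.

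The labelled cell type was checked against its markers. Of 14 macrophage markers listed, 13 were measured and 12 passed the filter on low values. Lyz2 was near 17.7, Cd68, Tyrobp and Cd14 were bright and Mertk was below the filter. In contrast, 0 of the 6 measured fibroblast markers (10 listed) and 5 of 16 mammary epithelial markers passed. Of these 5 only Csn3, a milk casein gene, differed (from 5.36, 5.21 and 5.08 to 5.86, 5.82 and 5.93). The normal values of Csn3 lay below the array medians, so it passed the filter only through arrays of conditioned medium. The summed linear signal of the epithelial list was 601 to 619 in normal medium and 624 to 638 in KO medium, and that of the macrophage list 537071 to 549653 and 549818 to 566734. The part of other cells in any change was not tested, and in bulk RNA fewer cells of a type and less RNA per cell cannot be told apart.

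**Figure D1:**
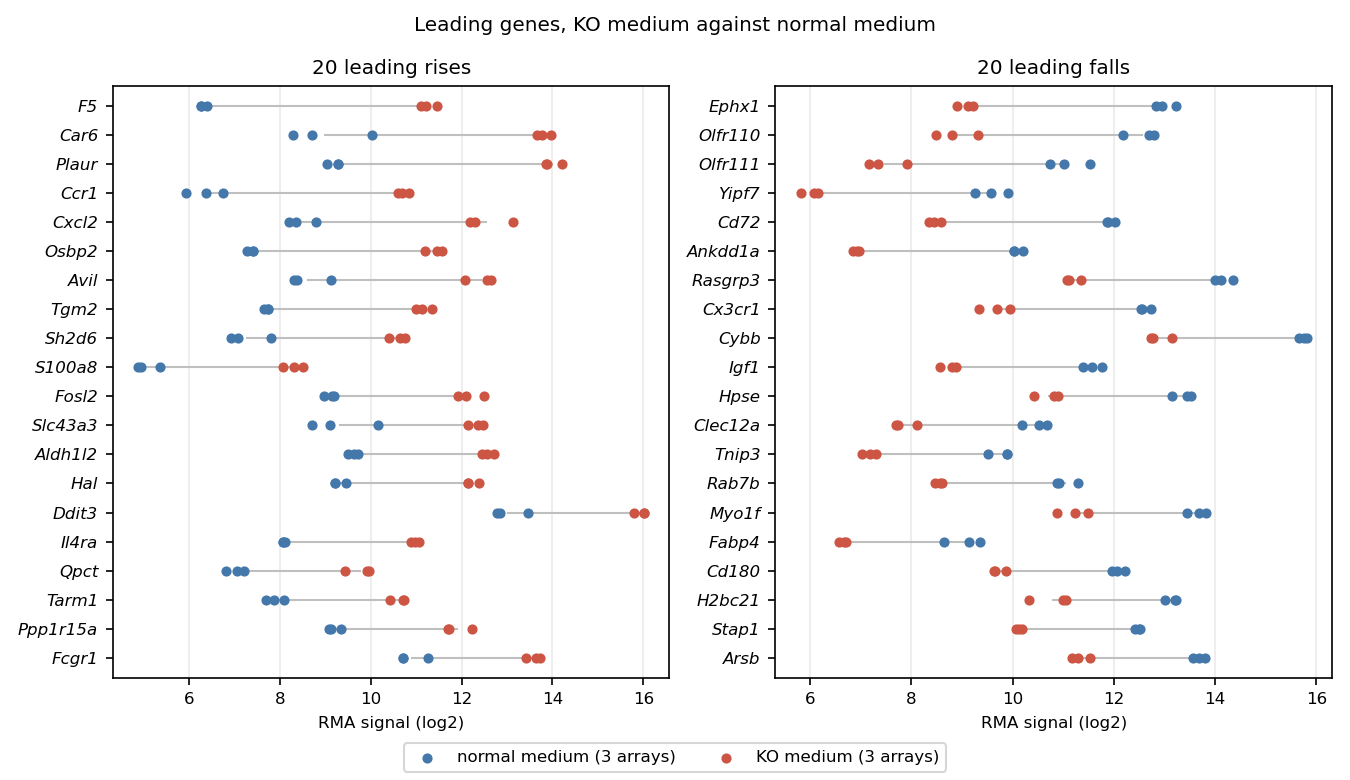
RMA signal (log2, horizontal axis) of the 20 leading rises and the 20 leading falls on each array, with 3 points per group and a grey line between the group means. The arrays of the groups are apart by at least 1.99 for each of these rises and by at least 1.93 for each of these falls, and normal replicate 3 is the highest normal array for 15 of the 20 rises.

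The largest rise was in F5, which encodes coagulation factor V (GRCm38.p6, chromosome 1, 164151835 to 164220277). It read 6.26, 6.39 and 6.27 in normal medium and 11.22, 11.11 and 11.45 in KO medium, which is 4.95 higher (SE 0.11) with an adjusted p of 3.71e-11. Plaur, whose product binds urokinase and holds plasmin activation at the cell surface (chromosome 7, 24460937 to 24475970), read 9.28, 9.04 and 9.29 against 13.86, 13.89 and 14.21, a change of 4.78 (SE 0.13, adjusted p = 1.1e-10). Both genes belong to blood clotting and its dissolution, and in both the KO arrays lay close together, far from the normal arrays. Car6, which encodes a secreted carbonic anhydrase, rose by 4.80 (SE 0.33), with normal arrays more widely spread at 8.28, 10.02 and 8.70 and KO arrays at 13.76, 13.67 and 13.97. Cxcl2, a chemokine that attracts neutrophils, read 8.36, 8.80 and 8.20 against 12.18, 12.29 and 13.14, a change of 4.08 (SE 0.21, adjusted p = 2.22e-08). KO replicate 3 was the highest KO array for Cxcl2 and for 13 of the 20 leading rises. Also among the leading rises were the chemokine receptor gene Ccr1 (4.36), Osbp2, an oxysterol-binding protein gene (4.04), Avil, an actin-binding protein gene (3.82), and the tissue transglutaminase gene Tgm2 (3.46). They were followed by Sh2d6 (3.33), the calprotectin subunit gene S100a8 (3.24), the AP-1 factor gene Fosl2 (3.07), Slc43a3 (3.01), the mitochondrial folate enzyme gene Aldh1l2 (2.96) and the histidine-degrading enzyme gene Hal (2.93). In normal medium S100a8 read 5.36, 4.94 and 4.88, below the array medians, so it passed the filter only through arrays of conditioned medium. Ddit3, the stress factor CHOP (2.91), Il4ra, the interleukin 4 receptor chain (2.89), Qpct (2.75), Tarm1 (2.74), Ppp1r15a (2.70) and Fcgr1, the high-affinity IgG receptor (2.69), closed the set.

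The largest fall was in Ephx1, microsomal epoxide hydrolase (chromosome 1, 180989556 to 181017569), which read 13.22, 12.96 and 12.84 in normal medium and 9.11, 9.21 and 8.89 in KO medium, a change of -3.94 (SE 0.105, adjusted p = 1.1e-10). Cybb, the catalytic subunit of the phagocyte NADPH oxidase (chromosome X, 9435252 to 9487766), was bright in the normal arrays at 15.75, 15.81 and 15.65 and read 12.74, 13.14 and 12.77 in KO medium, a change of -2.85 (SE 0.20). Cx3cr1, the fractalkine receptor, read 12.73, 12.55 and 12.53 against 9.69, 9.95 and 9.33, a change of -2.95 (SE 0.28). No array of KO medium reached a normal array for any of these 3 genes. The set also held the inhibitory receptor gene Cd72 (-3.46), the lectin receptor gene Clec12a (-2.61), the TLR4-like receptor gene Cd180 (-2.36), the exchange factor gene Rasgrp3 (-2.97) and the adaptor gene Stap1 (-2.35). Igf1, insulin-like growth factor 1, fell by 2.82, Hpse, heparanase, by 2.66, Fabp4, a fatty acid carrier, by 2.39, and Arsb, a lysosomal sulfatase, by 2.35. The set was completed by the olfactory receptor genes Olfr110 (-3.69) and Olfr111 (-3.62), Yipf7 (-3.56), Ankdd1a (-3.18), Tnip3 (-2.59), Rab7b (-2.49), Myo1f (-2.45) and the histone gene H2bc21 (-2.35). A further, dim probe set of Arsb, at 5.16 in normal medium, gave -0.16. The ETS core GGAAGT, a site common in macrophage promoters, was in the RefSeq promoter windows of 5 of the 14 leading falls with a window (35.7%), against 26.5% of all windows and 31.7% of those of tested genes.

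Genes of mitosis fell almost without exception. Of 57 tested of 59 listed, 56 were lower and 1 higher, with a median change of -1.18 against 0.007 over all genes tested, and 36 fell at least 2-fold. Cenpf, a kinetochore protein gene, read 10.05, 10.28 and 9.83 in normal medium and 7.90, 8.09 and 7.81 in KO medium, a change of -2.12 (SE 0.14, adjusted p = 1.47e-07). Kif23, the motor of the cytokinetic midzone, read 11.33, 11.71 and 11.32 against 9.47, 9.50 and 9.29, a change of -2.03 (SE 0.15, adjusted p = 4.52e-07). The groups did not overlap for either gene. Cdc25c, the phosphatase that starts mitosis, fell by 1.62, the condensin gene Ncapd2 by 1.59 and the spindle gene Dlgap5 by 1.57. The exception was Mad2l1, a spindle checkpoint gene, which rose by 0.52 (SE 0.12, adjusted p = 0.00355).

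DNA replication genes fell less. Of 51 tested of 54 listed, 27 fell and 8 rose while 16 were not called, and the median was -0.27. Tk1, thymidine kinase, fell by 1.10, the helicase component gene Gins3 by 0.91, the methylation reader gene Uhrf1 by 0.62 and the checkpoint gene Clspn by 0.53. Against the majority, Rpa3, a subunit of the single-strand binding protein, read 7.96, 8.15 and 8.06 against 9.03, 8.94 and 8.99 and rose by 0.93 (SE 0.09), and Pola2, a primase-polymerase subunit, rose by 0.55. Without KO replicate 3, 5 genes of this list were higher in place of 8. Cell cycle inhibitors and p53 targets split, with 10 of 27 higher and 8 lower (32 listed). Gadd45a, a growth arrest gene, rose by 2.39, the antiproliferative gene Btg1 by 1.85 and the ATF4-responsive sestrin Sesn2 by 1.36, while Sesn1 fell by 2.32 and Gadd45b by 2.21. Members of 1 family thus moved in opposite directions.

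The promoters of mitotic genes are shown because the cell cycle homology region (CHR, letters TTTGAA) is a known element of genes that peak in G2 and mitosis. Capitals mark those letters in the RefSeq windows (GRCm38.p6, 250 bases before to 50 after the start site) of the pair of named genes that fell most, Cenpf at chr1:189688037-189688336 and Kif23 at chr9:61946750-61947049, both on the minus strand and written 5′ to 3′ along the gene.
Cenpf: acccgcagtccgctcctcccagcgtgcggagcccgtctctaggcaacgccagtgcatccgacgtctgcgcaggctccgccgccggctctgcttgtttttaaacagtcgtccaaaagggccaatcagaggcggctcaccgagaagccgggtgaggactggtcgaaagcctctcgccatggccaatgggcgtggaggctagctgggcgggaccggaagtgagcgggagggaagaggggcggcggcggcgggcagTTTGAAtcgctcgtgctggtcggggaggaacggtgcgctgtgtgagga
Kif23: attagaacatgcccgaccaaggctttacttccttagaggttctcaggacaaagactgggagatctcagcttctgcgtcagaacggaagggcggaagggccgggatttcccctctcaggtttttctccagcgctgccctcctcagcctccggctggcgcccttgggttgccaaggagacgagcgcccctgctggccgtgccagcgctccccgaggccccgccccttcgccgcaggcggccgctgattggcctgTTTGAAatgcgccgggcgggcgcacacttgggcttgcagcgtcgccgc
In both windows the match begins at base 3, counted with the start site as base 1. Both strands were searched. Of the 46 called members with a window, 33 (71.7%) held TTTGAA, against 20.2% of all 27025 gene windows and 15.4% of those of tested genes. CCAAT, a common promoter box, was in 35 of the 46 (76.1%), against 41.1% of all windows and 42.7% of those of tested genes. For replication genes, the E2F forms TTTCCCGC and TTTGGCGC were in 6 (19.4%) and 4 (12.9%) of 31 called members, against 1.24% and 0.585% of all windows and 2.22% and 1.07% of those of tested genes. A match is a description of the letters and not evidence of binding. The lists name genes already known for each pathway, so a share within a list describes its genes and not the response to KO medium. Members not called were not counted.

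Genes of the ATF4 response to amino acid shortage rose. Of 36 tested of 40 listed, 31 were higher, 1 lower and 4 did not pass; the median change was 0.80 and 13 rose at least 2-fold. Besides Aldh1l2, Ddit3 and Ppp1r15a above, Trib3, a pseudokinase that restrains the pathway, read 7.54, 8.31 and 7.80 in normal medium and 10.63, 10.49 and 10.44 in KO medium, a change of 2.64 (SE 0.18, adjusted p = 1.67e-07). Cth, which makes cysteine from cystathionine, rose by 2.62 (8.22, 9.10 and 8.45 against 11.28, 11.20 and 11.15). Slc7a11, the cystine importer, read 11.02, 11.00 and 10.94 against 12.74, 12.73 and 12.85, a change of 1.79 (SE 0.10). For Trib3 and Cth normal replicate 3 was the normal array nearest to KO medium, while for Slc7a11 the normal arrays lay close together. Atf3, an immediate stress factor gene counted among ATF4 targets, went the other way: 11.33, 11.26 and 11.16 against 10.56, 10.70 and 10.41, a change of -0.69 (SE 0.09, adjusted p = 2.89e-05). Ddit3 was measured by a further probe set, which gave 2.42.

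Cytosolic aminoacyl-tRNA synthetases, many of them ATF4 targets, moved mostly upward with a few clear falls. Of 21 tested, 13 were higher and 3 lower, with a median of 0.43. Wars, the tryptophan enzyme, read 11.84, 12.38 and 11.96 against 14.02, 13.94 and 13.96, a change of 1.91 (SE 0.12). Lars, for leucine, rose by 1.18 and Nars, for asparagine, by 0.75. The lysine enzyme gene Kars fell by 0.96 and the glutamine enzyme gene Qars by 0.66, each with groups that did not overlap.

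ER chaperones and the unfolded protein response rose as well. Of 29 tested of 32 listed, 20 were higher and 3 lower, with a median of 0.36. Hspa5, the main ER chaperone BiP, read 13.07, 12.68 and 12.68 in normal medium and 14.43, 14.37 and 14.42 in KO medium, a change of 1.60 (SE 0.11, adjusted p = 2.62e-07). Ern1, the sensor that splices Xbp1 RNA, rose by 1.24, the ER degradation genes Selenos and Derl1 by 1.15 and 1.13, and the cochaperone gene Dnajb9 by 1.06. Edem2, which trims mannose on misfolded proteins, fell by 0.41, and Eif2ak3, the sensor kinase PERK, fell by 0.23 (adjusted p = 0.0105; 0.0541 without normal replicate 2). Without that array 1 member of the list was lower in place of 3.

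The windows of 4 of these genes carry the known response letters in capitals. TGATGNAAN is the composite site bound by C/EBP and ATF factors, shown for Trib3 (chr2:152344011-152344310, minus strand) and Slc7a11 (chr3:50443564-50443863, minus strand). The ER stress element, a CCAAT box followed by CCACG at a fixed distance, is shown for Hspa5 (chr2:34771840-34772139) and Creld2 (chr15:88819396-88819695), both on the plus strand.
Trib3: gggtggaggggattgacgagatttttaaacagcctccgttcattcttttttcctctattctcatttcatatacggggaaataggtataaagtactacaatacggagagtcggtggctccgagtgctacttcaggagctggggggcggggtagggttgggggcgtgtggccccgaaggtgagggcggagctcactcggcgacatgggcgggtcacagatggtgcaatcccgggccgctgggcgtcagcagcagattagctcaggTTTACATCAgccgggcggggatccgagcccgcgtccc
Slc7a11: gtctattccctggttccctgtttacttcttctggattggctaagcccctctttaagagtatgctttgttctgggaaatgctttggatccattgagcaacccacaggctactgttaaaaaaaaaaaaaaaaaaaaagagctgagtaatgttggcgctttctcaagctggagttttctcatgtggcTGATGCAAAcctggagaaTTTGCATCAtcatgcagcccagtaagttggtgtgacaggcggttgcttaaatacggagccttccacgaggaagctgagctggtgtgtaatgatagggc
Hspa5: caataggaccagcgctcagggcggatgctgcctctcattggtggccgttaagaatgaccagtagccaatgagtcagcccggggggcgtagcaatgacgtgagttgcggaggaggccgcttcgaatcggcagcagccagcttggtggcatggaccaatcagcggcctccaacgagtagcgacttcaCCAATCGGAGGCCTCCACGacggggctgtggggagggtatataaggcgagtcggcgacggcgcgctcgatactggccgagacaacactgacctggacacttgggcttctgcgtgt
Creld2: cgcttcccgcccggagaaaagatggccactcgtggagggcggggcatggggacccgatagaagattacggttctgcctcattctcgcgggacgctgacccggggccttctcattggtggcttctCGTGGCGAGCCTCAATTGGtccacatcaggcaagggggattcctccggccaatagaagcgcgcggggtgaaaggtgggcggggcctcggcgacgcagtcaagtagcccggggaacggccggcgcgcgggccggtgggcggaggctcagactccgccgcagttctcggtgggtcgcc
Matches on the opposite strand of the gene appear as the reverse complement, as in Trib3 and Creld2. The composite letters were in 9 of 27 called ATF4 list members with a window (33.3%), against 4.50% of all windows and 3.28% of those of tested genes; these 9 include Atf3, the member that fell. The ER stress element was in 7 of 20 called members (35.0%), against 0.137% of all windows and 0.163% of those of tested genes. CCAAT, which the full element contains, was in 16 of the 20 (80.0%), against 41.1% of all windows and 42.7% of those of tested genes. These lists too name genes known for their pathway, so such shares describe the lists and not the response to KO medium. Creld2, an ER protein gene, rose by 1.34.

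**Figure D2:**
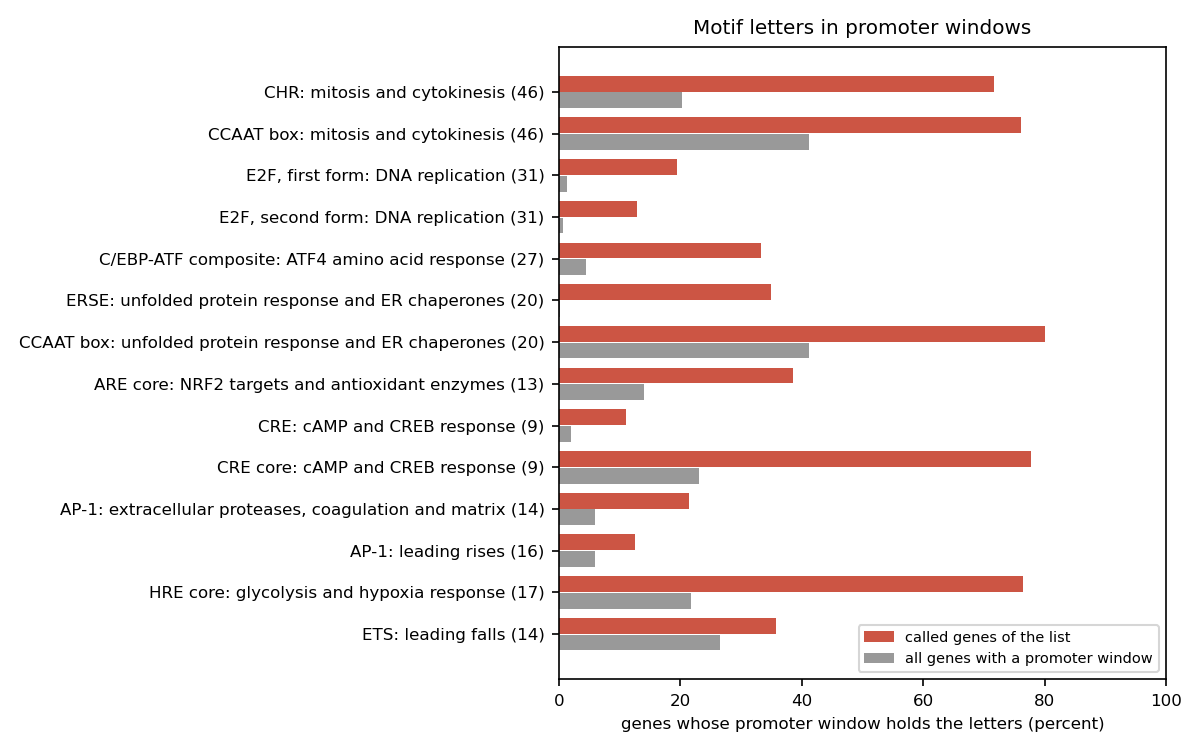
Percentage of genes whose promoter window holds the letters of each named motif (horizontal axis, 0 to 100), for the called genes of a list (red, their number in brackets) and for all genes with a window (grey); CRE core is TGACG, ARE core TGACNNNGC and HRE core ACGTG. The mitosis list with the CHR stands at 71.7% against 20.2%, and the ER list with the ER stress element (ERSE) at 35.0% against 0.137%. Apart from the leading genes, the lists name genes known for each pathway, so these contrasts describe the lists and not the response to KO medium.

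Antioxidant genes under NRF2 split. Of 24 tested of 32 listed, 9 were higher and 6 lower, with a median of 0.06. Sqstm1, the autophagy receptor p62, rose by 1.77 (13.22, 13.38 and 13.12 against 15.01, 14.93 and 15.10) and Me1, malic enzyme, by 1.36, whereas Sod1, superoxide dismutase, fell by 0.63 and Ephx1 fell as above. Slc7a11 is on this list and on the ATF4 list. Of 13 called members with a window, 5 (38.5%) held TGACNNNGC, against 14% of all windows and 16.3% of those of tested genes.

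Genes of glycolysis and the hypoxia response did not move as a group, with 8 of 37 higher, 10 lower and a median of -0.03. Vegfa, vascular endothelial growth factor A, read 12.88, 12.71 and 12.74 in normal medium and 14.48, 14.49 and 14.49 in KO medium, a change of 1.71 (SE 0.07, adjusted p = 3.37e-09). The KO arrays were nearly identical. Ero1a, an ER oxidase, rose by 1.17, and Ddit4, an inhibitor of mTORC1, by 0.98; both are on the ATF4 list too. The phosphofructokinase gene Pfkm fell by 0.80 and the carbonic anhydrase gene Car12 changed by -1.21. Without normal replicate 3 or 4, or KO replicate 1 or 2, 5 members were higher in place of 8. The core letters ACGTG were in 13 of 17 called members (76.5%), which include falls and rises, against 21.8% of all windows and 27.8% of those of tested genes.

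Targets of cAMP and CREB were mostly higher. Of 27 listed, 16 passed the filter, of which 13 rose, 1 fell and 2 did not pass the test, with a median of 0.96; over the 24 named on the array without a filter the median was 0.47. Dusp1, a phosphatase that switches off p38 and JNK, read 10.66, 10.63 and 10.50 against 12.37, 12.38 and 12.70, a change of 1.89 (SE 0.09, adjusted p = 9.37e-09). Crem, a CREB-family repressor, rose by 1.58 (6.65, 6.81 and 6.73 against 8.27, 8.18 and 8.47). Arg1, arginase 1 (chromosome 10, 24915207 to 24927470), read 6.16, 5.95 and 5.99 against 7.79, 8.08 and 8.14, a change of 1.97 (SE 0.13). None of these genes had overlapping groups. Rgs2, a brake on G protein signalling and itself a CREB target, fell by 1.42, from 10.62, 10.19 and 10.35 to 8.45, 8.73 and 9.71. The Dusp1 window (chr17:26508423-26508722, minus strand) is shown because it alone among the 9 called members with a window held the full cAMP element TGACGTCA, in capitals, against 2.03% of all windows and 3.32% of those of tested genes.
Dusp1: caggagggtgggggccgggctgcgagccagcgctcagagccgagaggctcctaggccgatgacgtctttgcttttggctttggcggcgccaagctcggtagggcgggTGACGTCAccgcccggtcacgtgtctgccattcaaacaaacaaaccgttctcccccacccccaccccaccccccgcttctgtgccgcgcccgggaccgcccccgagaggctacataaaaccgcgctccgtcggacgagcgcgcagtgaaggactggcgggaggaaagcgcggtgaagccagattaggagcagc
The shorter core TGACG, which the full element contains, was in 7 of the 9 (77.8%), against 23% of all windows and 32.8% of those of tested genes.

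Immediate early genes and feedback inhibitors of MAP kinases had 18 higher and 5 lower of 35 tested of 40 listed, with a median of 0.44. Fosl2 read 9.19, 9.15 and 8.97 against 12.10, 11.93 and 12.50. Dusp6, the ERK phosphatase, rose by 2.03, Dusp16 by 1.46 and the small Maf gene Mafg by 0.66, while Zfp36l1, which promotes decay of AU-rich RNAs, changed by -1.21. KO replicate 3 stood above the other KO arrays for part of the list. Fos read 7.65, 7.48 and 9.58 in the KO arrays, against 6.37, 5.99 and 6.05 in normal medium, and Dusp5 read 7.71, 7.64 and 9.63 against 6.61, 6.57 and 6.42. Without KO replicate 3 the median of the list was 0.19.

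In the NF-kB pathway, 13 of 23 genes were higher and 2 lower, with a median of 0.34. The endotoxin receptor gene Tlr4 rose by 1.86 (10.52, 10.63 and 10.62 against 12.25, 12.39 and 12.70). The inhibitor gene Nfkbib rose by 1.08, Nfkbiz by 0.90 and Cflar, which blocks caspase 8, by 0.91. A further probe set of Cflar gave 0.78. The adhesion gene Icam1 fell by 0.93 and the subunit gene Rel by 0.33.

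Secreted factors changed selectively. Of 37 cytokine and growth factor genes listed, 22 passed the filter, 12 rose and 5 fell; the median was 0.41, and 0.05 over the 34 named on the array without a filter. Hbegf, a ligand of the EGF receptor, read 5.71, 5.72 and 5.72 in normal medium, close to the array medians, and 7.27, 7.48 and 7.61 in KO medium, a change of 1.74 (SE 0.08, adjusted p = 1.17e-08). Tnfsf9, the ligand of 4-1BB, rose by 1.90, and Il1a and Il23a, which encode inflammatory cytokines, by 2.35 and 1.98. Il6 rose by 2.09 (SE 0.34, adjusted p = 0.000279) with unequal KO arrays, 6.88, 6.25 and 8.0, against 4.88, 5.14 and 4.83, which lay below the array medians. Tnf changed by 0.53 (9.03, 9.22 and 8.87 against 9.38, 9.51 and 9.81; adjusted p = 0.0213), and its call was lost without normal replicate 2 or 4 or KO replicate 3 (adjusted p = 0.0540, 0.0854 and 0.0947). The B cell survival factor gene Tnfsf13b fell by 1.42 and Igf1 as above. Il1b and Il10 did not pass the filter, with group means no higher than 5.27.

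Chemokine ligands had 7 of 14 higher and 2 lower (26 listed). Cxcl14, a homeostatic chemokine gene, rose by 2.34, Ccl6 by 2.55 and the monocyte attractant gene Ccl2 by 1.37 (7.16, 6.77 and 7.09 against 8.25, 8.19 and 8.70). Cxcl16, a membrane-bound chemokine and scavenger receptor, fell by 1.79 and the T cell attractant gene Ccl5 by 0.36. The list of chemokine and chemoattractant receptors, which also holds Plaur, split evenly, with 7 of 19 higher and 8 lower. Ccr1 (5.93, 6.74 and 6.37 against 10.59, 10.69 and 10.85) and the complement receptor gene C3ar1 (0.96) rose. Cx3cr1, the nucleotide receptor gene P2ry6 (-1.89) and the oxysterol receptor gene Gpr183 (-1.51) fell. The Ccl6 product is a ligand of the Ccr1 product.

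Pattern recognition, Fc and inhibitory receptors were remodelled in both directions. Of 36 tested of 39 listed, 14 rose and 14 fell, 9 and 10 of them at least 2-fold, while over all genes 2.14% rose and 1.94% fell by that much; the list's median was -0.02. Cd300lf, a lipid-binding receptor, rose from 9.63, 9.35 and 9.65 to 11.96, 11.99 and 11.98, a change of 2.43 (SE 0.08, adjusted p = 6.48e-10). Fcgr1 read 10.72, 11.27 and 10.72 against 13.63, 13.42 and 13.73. The lectin receptor genes Clec4d, Clec4e and Clec5a rose by 1.67, 1.62 and 1.47, Trem1, which amplifies inflammation, by 2.26, and the lipopolysaccharide coreceptor gene Cd14 by 1.08. On the falling side, Cd180 and Ly86, whose products form 1 complex, fell by 2.36 and 2.20: Cd180 read 12.22, 11.97 and 12.06 against 9.63, 9.87 and 9.66, and Ly86 13.09, 12.78 and 12.95 against 10.68, 10.85 and 10.70. The nucleic acid sensors of endosomes Tlr9, Tlr13 and Tlr7 fell by 1.60, 1.38 and 1.20, and the lipid receptor gene Trem2 and the beta-glucan receptor gene Clec7a by 1.60 and 1.25. Tlr4 and Tlr2, which sense bacterial envelopes at the surface, were higher (1.86 and 0.72), and Tlr1 was lower (-1.03).

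**Figure D3:**
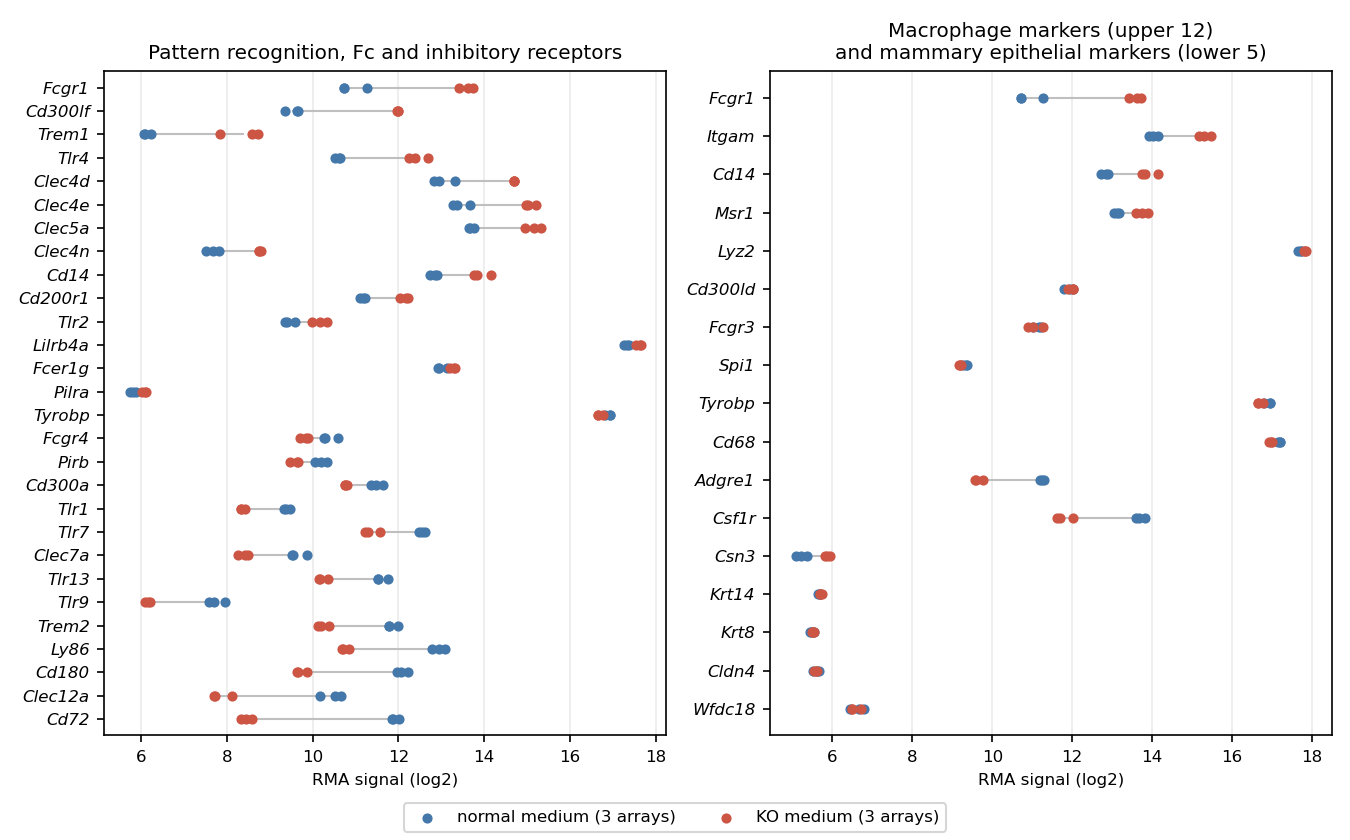
RMA signal (log2, horizontal axis) on each array for the called receptors of the pattern recognition list (left) and for the macrophage and mammary epithelial markers that passed the filter (right), with 3 points per group and a grey line between the group means. Receptors are ordered by change, from Fcgr1 (2.69) to Cd72 (-3.46); the epithelial markers lie between 5.08 and 6.78 in every array.

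Macrophage identity genes were themselves affected. Csf1r, the receptor of macrophage colony-stimulating factor (chromosome 18, 61105572 to 61131139), read 13.83, 13.60 and 13.66 in normal medium and 11.70, 12.02 and 11.61 in KO medium, a change of -1.92 (SE 0.16, adjusted p = 1.03e-06). Adgre1, which encodes F4/80, fell by 1.59 (11.29, 11.19 and 11.24 against 9.60, 9.78 and 9.56). Itgam, which encodes CD11b, rose by 1.28 (14.14, 13.92 and 14.03 against 15.30, 15.46 and 15.18). In all, 5 macrophage markers rose and 4 fell. Itgax and Irf8, which also mark dendritic cells, fell by 2.02 and 0.64, and the neutrophil markers S100a8 and Csf3r went in opposite directions (3.24 and -1.55). S100a8 lay below the array medians in normal medium. The summed linear signal of the dendritic list was 3401 to 4229 in normal and 1944 to 2108 in KO medium. Of its 6 tested members 4 were not called. The median level of that list was 5.92 to 5.93 in normal and 5.8 to 5.9 in KO medium. The sum of the neutrophil list was 1681 to 1822 in normal and 1148 to 1251 in KO medium. The neutrophil sum follows Csf3r, its brightest member in normal medium; 4 of the 6 members were not called, and the median level of the list was 5.07 to 5.32 in normal and 5.41 to 5.54 in KO medium. Lyz2 changed by 0.13, a call lost without normal replicate 2 or KO replicate 1 or 2 (adjusted p from 0.0643 to 0.125).

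Markers of classical activation were mostly higher. Of 25 classical genes listed, 15 passed the filter, 11 rose and 2 fell, with a median of 0.89 (0.29 over the 24 named on the array without a filter). Cd86, a costimulatory ligand, read 7.63, 8.03 and 7.58 against 9.43, 9.19 and 9.55, a change of 1.64, and Cd80 rose by 1.08. Nos2, inducible nitric oxide synthase, overlapped between the groups (8.81, 8.56 and 8.33 against 8.81, 9.11 and 8.54; change 0.25, adjusted p = 0.229), and Irf5, a factor of this programme, fell by 0.46. Of 29 alternative genes listed, 18 passed the filter, 9 rose and 3 fell, with a median of 0.11. Tgm2 (7.73, 7.65 and 7.74 against 11.13, 11.00 and 11.36), Il4ra (8.06, 8.11 and 8.08 against 10.97, 10.89 and 11.06) and Arg1 rose, Trem2 and Clec7a fell, and Mrc1, the mannose receptor, did not pass the filter (means 5.15 and 5.01).

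Tgm2 is also a target of TGF-beta, whose list had 8 of 18 higher and 3 lower with a median of 0.15 (0.23 without normal replicate 2). Pmepa1, Skil and Ski, inhibitors that the pathway induces, rose by 2.00, 1.37 and 0.63, and the repressor gene Tgif1 by 1.23. The receptor genes Tgfbr2 and Tgfbr1 fell by 0.57 and 0.39. Pmepa1 read 5.76, 5.92 and 6.01 in normal medium and 8.0, 7.58 and 8.10 in KO medium.

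Extracellular proteases, coagulation and matrix genes had 24 of 43 above the filter, of which 11 rose and 6 fell. Pdpn, podoplanin, a ligand of platelets (chromosome 4, 143267409 to 143299564), read 6.66, 6.77 and 6.72 against 9.02, 9.12 and 9.11, a change of 2.37 (SE 0.075, adjusted p = 4.39e-10). With F5 and Plaur it led this list. Mmp9, gelatinase B, read 5.76, 5.66 and 5.56 against 6.47, 6.55 and 6.47 (0.84), and the cathepsin gene Ctsl rose by 0.86. The inhibitor gene Timp2 fell by 0.79, and heparanase as above. The list's median was 0.17, 0.25 without normal replicate 2 and 0.26 without KO replicate 2. The AP-1 letters TGACTCA were in the windows of Plaur, Mmp12 and Procr, 3 of 14 called members (21.4%), and of 2 of the 16 leading rises with a window (12.5%), against 5.95% of all windows and 4.85% of those of tested genes.

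Adhesion genes split: 8 of 19 rose and 5 fell, while over all genes tested 21.4% rose and 17.6% fell. The integrin beta 7 gene Itgb7 rose by 1.49 and Cd36, a scavenger receptor that binds matrix and oxidised lipids, by 1.64 (8.36, 8.15 and 8.02 against 9.88, 9.63 and 9.94). Itga4, the integrin that pairs with it in binding to vessel walls, fell by 1.70 (13.80, 13.83 and 13.83 against 12.03, 12.18 and 12.15), and Selplg, the selectin ligand, by 1.64.

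**Figure D4:**
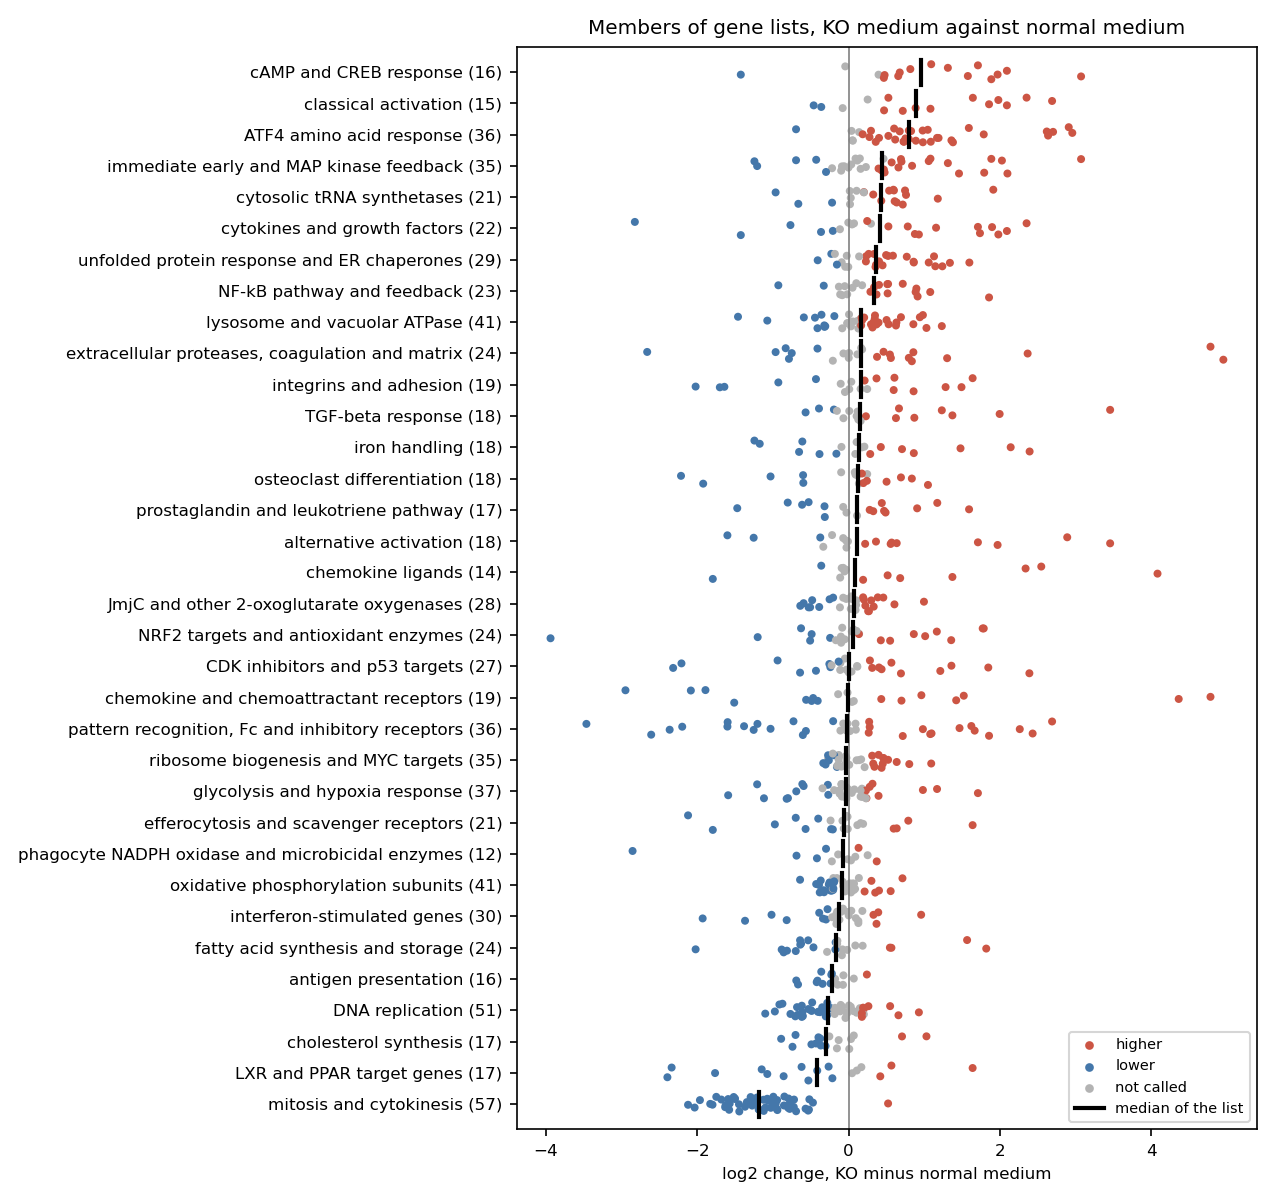
Log2 change in KO medium against normal medium (horizontal axis) of every tested member of 34 gene lists, with the number of tested members in brackets, 1 point per gene and a black line at the list's median. Red points were called higher, blue lower and grey not called; the mitosis list has its median at -1.18 and the cAMP and CREB list at 0.96.

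Of 30 tested interferon-stimulated genes 8 fell and 4 rose, with a median of -0.13, and 18 did not pass. The 40.0% called were near the 39.1% of all genes tested. Oas3, a sensor of double-stranded RNA, fell by 1.93 (8.71, 8.44 and 8.28 against 6.61, 6.55 and 6.49), Usp18, which removes ISG15, by 1.37 and Bst2, tetherin, by 1.02, while the DNA sensor gene Ifi204 rose by 0.96. Without normal replicate 2 or KO replicate 1, 2 genes rose in place of 4. Of 16 antigen presentation genes 9 fell and 1 rose. The immunoproteasome genes Psmb9 and Psmb8 fell by 0.69 and 0.36, Tapbp, which loads class I molecules, by 0.67 and H2-DMa by 0.34, and H2-M3 rose by 0.24.

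Lipid genes were mostly lower. Of 17 tested targets of LXR and PPAR, 11 fell and 3 rose, with a median of -0.41. Lpl, lipoprotein lipase, read 10.16, 9.90 and 9.45 in normal medium and 7.56, 7.53 and 7.41 in KO medium, a change of -2.34 (SE 0.13, adjusted p = 4.15e-08). Cpt1a, which admits fatty acids into mitochondria, fell by 1.76 (12.39, 12.57 and 12.42 against 10.75, 10.71 and 10.63), and Pltp, a phospholipid carrier, by 1.15. Cholesterol synthesis genes had 9 of 17 lower and 2 higher, with a median of -0.30. Pmvk, Dhcr7 and Mvd, enzymes of that pathway, fell by 0.89, 0.74 and 0.70, and Hsd17b7 and Sc5d rose by 1.03 and 0.71. Of 24 fatty acid genes 12 fell and 4 rose. The desaturase genes Fads2, Scd1 and Fads1 fell by 2.02, 0.86 and 0.81; a further bright probe set of Fads2 gave -1.79 and a dim one of Scd1, at 5.57 in normal medium, -0.09. Among the members that rose, Hilpda, which blocks fat breakdown in droplets, changed by 1.82 (13.28, 13.35 and 12.99 against 14.99, 15.06 and 15.03), Acsl4, which activates arachidonic acid, by 1.57 and, from the LXR and PPAR list, the droplet coat gene Plin2 by 0.57.

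Of 12 tested genes of the phagocyte oxidase and microbicidal enzymes, 4 fell and 2 rose, or 1 without normal replicate 2 or KO replicate 1 or 2. Over all genes tested 17.6% fell and 21.4% rose. Besides Cybb, the oxidase genes Ncf1 and Rac2 fell by 0.69 and 0.42 and the proton channel gene Hvcn1 by 0.30, while Ncf4 rose by 0.37. Genes that take up dead cells and modified lipids had 8 of 21 lower and 4 higher. Gas6, the bridging ligand of TAM receptors, fell by 2.12 (9.77, 9.61 and 9.69 against 7.65, 7.66 and 7.40) and Scarb1 by 0.97, while Havcr2 rose by 0.79.

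Lysosomal genes were more often higher, with 21 of 41 rising and 10 falling and a median of 0.17. The cholesterol exporter gene Npc1 rose by 1.23 and the proton pump genes Atp6v1g1 and Atp6v1c1 by 1.03 and 0.98, whereas Man2b1, alpha-mannosidase, fell by 1.46 and Lipa, acid lipase, by 1.07. Mitochondrial respiratory chain genes moved little. Of 41, 17 fell and 6 rose, with a median of -0.08 (-0.14 without normal replicate 4). Uqcrh (-0.64) and Uqcrc2 (-0.37) fell, and Uqcrq (0.71), Cycs (0.56) and Ndufb9 (0.40) rose. A further probe set of Cycs gave 0.62. Of 35 ribosome biogenesis genes and MYC targets 12 rose and 6 fell, with a median of -0.03, while over all genes tested 21.4% rose and 17.6% fell. Odc1, the ornithine decarboxylase that starts polyamine synthesis, rose by 1.09, Wdr74 by 0.80 and Heatr1 by 0.64, and Ddx21 (-0.33) and Polr1c (-0.26) fell.

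Iron genes split, 7 of 18 rising and 6 falling, against 21.4% and 17.6% of all genes tested. Cp, ceruloplasmin, rose by 2.39, the mitochondrial iron importer gene Slc25a37 by 2.14 (11.39, 11.56 and 11.40 against 13.69, 13.60 and 13.49) and the importer gene Slc39a14 by 0.71, and Ncoa4, which delivers ferritin for breakdown, and Trf, transferrin, fell by 1.24 and 1.17. Of 18 osteoclast genes 7 rose and 5 fell: Dcstamp, needed for cell fusion, fell by 2.21 and Mitf by 1.03, while the proton pump gene Atp6v0d2 rose by 0.69 and Mmp9 by 0.84. In eicosanoid synthesis 8 of 17 rose and 6 fell. Pla2g4a, which frees arachidonic acid, rose by 1.59, the prostacyclin receptor gene Ptgir by 1.17 and the prostaglandin E synthase gene Ptges by 0.91, and Hpgds, the prostaglandin D synthase, and Alox5ap, needed for leukotrienes, fell by 1.47 and 0.53.

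Of 28 JmjC and other 2-oxoglutarate oxygenase genes, the enzyme class of JMJD6, 11 rose and 8 fell in the RAW264.7 cells, with a median of 0.07. Among all genes tested 21.4% rose and 17.6% fell. The histone demethylase genes Kdm4a and Kdm6b rose by 1.00 and 0.61, and Tet2, Kdm3b and Kdm2b fell by 0.64, 0.51 and 0.48. Jmjd6 itself overlapped between the groups (-0.11, SE 0.12, adjusted p = 0.53). Without normal replicate 4, 7 members rose in place of 11, and a dim probe set of Kdm6b, at 4.74 in both groups, showed no change. Anxa1, annexin A1, a phospholipid-binding protein that dampens inflammation, fell by 0.94 (11.51, 11.39 and 11.37 against 10.42, 10.50 and 10.52; adjusted p = 4.02e-07).

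Few genes differed between KO and SCR medium. SCR medium changed 6369 genes (35.2%) against the same normal arrays, and the direct comparison of KO with SCR medium called 49 of 18119 genes (0.27%), 46 higher (0.254%) and 3 lower (0.0166%). Of these 49, 46 were also called against normal medium, and each lay farther from normal medium in KO than in SCR medium, a count that shared arrays and the choice of called genes affect. The KO and SCR responses share the normal arrays, so their values are set side by side and the test of the difference is KO against SCR medium. Plaur rose by 4.78 in KO and 3.37 in SCR medium (difference 1.42, adjusted p = 0.000311), Osbp2 by 4.04 and 2.65, and Pdpn by 2.37 and 1.13 (difference 1.23, SE 0.075, adjusted p = 1.37e-05). Cxcl2 (4.08 and 2.81), Arg1 (1.97 and 0.88), Tgm2 (3.46 and 2.38) and F5 (4.95 and 4.04) also differed. On the falling side Cd180 stood at -2.36 and -1.75, Usp18 at -1.37 and -0.78 and Rilpl2 at -0.66 and -0.32. By contrast Car6 (4.80 and 4.64), Cenpf (-2.12 and -2.10), Trib3 (2.64 and 2.41) and Hspa5 (1.60 and 1.58) were not called different, with adjusted p = 0.995 each, which does not show that they were equal.

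Members called between KO and SCR medium stood in several lists. These lists were chosen with earlier results of these data known and share members, so their counts are descriptions and not tests. In the cAMP and CREB list 6 of 16 were higher in KO medium: Arg1, Fosl2 (difference 1.05), Crem (0.66), Dusp1 (0.65), Odc1 (0.81) and Vegfa (0.39, adjusted p = 0.0332), against 0.254% of all genes. Cytokines and growth factors had 4 of 22, namely Hbegf (0.90), Il23a (0.73), Lif (0.57) and Vegfa, and alternative activation 4 of 18, Tgm2, Arg1, Il4ra (0.62) and Vegfa. The mitosis, tRNA synthetase and ER chaperone lists had 0 called members, with median differences of 0.04, 0.08 and 0.01. The count of 49 depended on the setting and on single arrays. With array weights it was 376, 220 higher and 156 lower. It was 20 without SCR replicate 3 or KO replicate 1, 22 without KO replicate 3, 23 without SCR replicate 4, 25 without SCR replicate 1 and 39 without KO replicate 2, and with the 6 arrays alone it was 22.

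**Figure D5:**
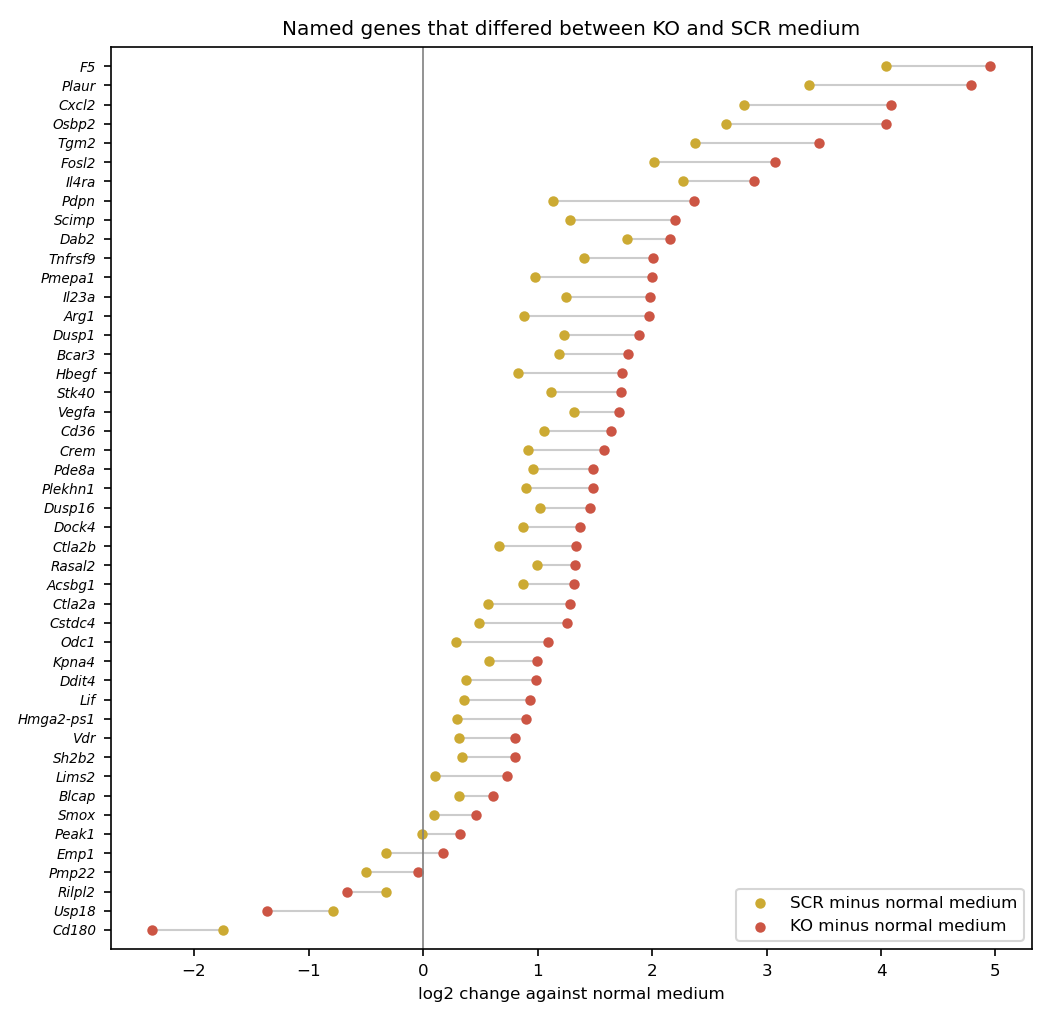
Log2 change against normal medium (horizontal axis) for the 46 genes that differed between KO and SCR medium, predicted genes left out, in KO medium and in SCR medium, joined by a line. Plaur stands at 4.78 and 3.37 and Cd180 at -2.36 and -1.75; both sets of changes use the same normal arrays.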

How the data were processed

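Total RNA of 12 samples was measured on Affymetrix arrays. The authors deposited log2 signals made by RMA in Affymetrix Expression Console on mm10, as the submitters' processing notes state; no version is named there. Because RMA equalises the arrays, a difference in RNA content per cell would not show, and changes of dim genes are compressed. Of 65528 probe sets, 31018 had 1 gene symbol in the platform table, 1478 had several and were not named, and 33032 had no listed gene. Symbols were updated through RefSeq (GRCm38.p6, the assembly of mm10); the probe set with the highest mean stood for a gene. Of 30464 genes, 18119 exceeded the array median in at least 3 arrays and were tested. Tests used limma 3.58.1 (R 4.3.3), fitting the 4 groups on 12 arrays (residual df 8) with an intensity trend and Benjamini-Hochberg adjustment, checked on simulated data. Figures used matplotlib 3.10.9.

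The comparison and the gene lists were chosen with earlier results of these data known, and lists are described by counts and medians only. Named were the 20 largest rises and falls without overlap between the groups, leaving out predicted genes, Riken clones, microRNAs, snoRNAs and pseudogenes. To these were added up to 5 members of each list with the smallest p and up to 2 against its majority, the 5 genes of largest KO minus SCR change in each direction, and 14 genes reported whatever their values. Fos, Dusp5, Trem1, Clec4d, Clec4e, Clec5a, Tlr1, Tlr2, Tlr7, Tlr9, Tlr13, Creld2, Lif, Mmp12 and Procr were named after their values were seen. Promoter windows and start sites are RefSeq's, and both strands were searched. Alternatives were other normalizations, filters, variance priors, array weights, probe set rules, thresholds, replicate blocks, and each array left out.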

Additional observations from a re-analysis of the deposited data

Results flagged for a closer look

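Probe sets with no listed gene lie outside the comparisons above. With the same filter and test, 14688 of them were tested among 34165 probe sets of all kinds, and 2889 (19.7%) were called between KO and normal medium, 1273 higher and 1616 lower, 353 of them at least 2-fold. Among probe sets with a listed gene 34.9% were called. The unlisted probe sets cannot be named here.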

How the results depend on the processing

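The count of genes changed against normal medium was 892 (467 higher, 425 lower) when a 1.5-fold change was added to the null, 5277 at an adjusted p below 0.01, 6148 to 6600 with 1 array left out and 6053 to 7674 in the other settings. The count of at least 2-fold changes was 699 to 793. The replicate numbers gave no pairing between KO and normal medium (same-number correlations of 0.0751 and 0.0138). Between KO and SCR medium these correlations were 0.141 and -0.0653. The largest same-number value, 0.295, was for replicate 1 of SCR medium without and with CSH. With the replicate block 6777 genes were called, 6421 of them among the 7079, and KO against SCR medium gave 39. That last count, 49 in the main setting, was 376 with array weights (220 higher, 156 lower), where SCR replicate 4 took a weight of 6.13, 22 with the 6 arrays alone and 20 to 39 with 1 array left out. Of 211 named genes, 209 were called, and 3 (Eif2ak3, Lyz2 and Tnf) lost their call in some setting; none reversed.

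List medians moved mostly with the filter, which sets which members enter. Without a filter and with the stricter one they were 0.47 and 1.44 (cAMP and CREB), 0.05 and 0.83 (cytokines), 0.29 and 1.08 (classical activation) and -0.24 and -0.53 (LXR and PPAR), and with the stricter one 0.69 (immediate early genes). With 1 array left out, medians ran from 0.35 to 0.44 (ER chaperones), 0.19 to 0.51 (immediate early genes), 0.28 to 0.43 (NF-kB), 0.81 to 1.01 (classical activation) and -0.48 to -0.37 (LXR and PPAR). Without a filter the alternative activation median turned to -0.003 and the eicosanoid median to -0.01, the latter also -0.31 under the stricter filter. Other list medians kept their sign. Dim probe sets limit what can be said of genes near the array medians.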

Other observations

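The following groups were chosen after their values had been seen, and near-identical copies can share probes, so single values within a family are uncertain. Replication-dependent histone genes were lower in KO medium: of 22 tested, 19 fell and 0 rose (39.1% of all genes were called in either direction), with a median of -0.58. H2bc21 changed by -2.35, H3c3 by -1.84 and H2ac15 by -1.65. The survival genes Bcl2a1a, Bcl2a1c and Bcl2a1d, related to BCL2, rose by 1.41, 2.09 and 1.53. Genes named for the constitutive proteasome and its cap were more often higher than lower, 17 of 33 rising and 3 falling. Over all genes tested 21.4% rose and 17.6% fell. Psmc5 changed by 0.87 and Psmc1 by 0.78, while the immunoproteasome genes Psmb8, Psmb9 and Psmb10 fell by 0.36, 0.69 and 0.42.

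Some receptor and enzyme families split. Of 7 tested Cd300 genes Cd300lf rose and 4 fell, with Cd300lg at -1.21. Ms4a6d rose by 2.26, from 10.63, 10.88 and 10.74 to 13.07, 12.83 and 13.12, whereas Ms4a6c fell by 1.75, from 10.58, 10.61 and 10.64 to 8.90, 8.83 and 8.85. Among 15 glutathione transferases 8 fell, against 17.6% of all genes tested, with Mgst2 and Mgst3 at -2.05 and -2.04, and Gsto1 rose by 1.81. Txnip, a thioredoxin inhibitor that responds to glucose, fell by 2.08 (15.82, 16.23 and 15.77 against 13.92, 13.67 and 13.99). A probe set listed as Mir155, which does not tell the arms of that microRNA apart, read 7.23, 7.54 and 7.35 in normal medium and 8.60, 8.53 and 9.77 in KO medium, a change of 1.59 (SE 0.24).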
